A study of Mus musculus with 8 samples.

Results

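Integrin chains were followed at the RNA level in peritoneal B-1a cells that lacked PTIP and in their controls. The 10 genes were the alpha chains Itgam (CD11b), Itgal (CD11a), Itgax (CD11c), Itga4, Itga6 and Itgav and the beta chains Itgb1, Itgb2, Itgb3 and Itgb7. They were taken by gene symbol from 22180 genes with a probe set of their own on the array. A gene with several probe sets was represented by the brightest of them on average. KO mice carried a Cre allele of the B lineage and floxed alleles of PTIP (PTIPflox/flox). The mice labelled WT carried the same Cre allele with unmodified PTIP (PTIP+/+). All mice were 5 weeks old. The 29 KO mice and 22 WT mice were pooled into 4 samples per genotype, and each pool gave 1 array. The cells were obtained by lavage of the peritoneal cavity and sorted by flow cytometry. This Cre is known to act in the whole B lineage from its early stages on.

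Integrins are adhesion receptors made of an alpha and a beta chain, and neither chain reaches the cell surface in useful amounts without its partner. The beta 2 chain pairs with CD11a to form LFA-1, which binds ICAM proteins, with CD11b to form Mac-1, which is also complement receptor 3, and with CD11c. The beta 1 chain pairs with alpha 4 into VLA-4, a receptor for VCAM-1 and fibronectin, with alpha 6 into a laminin receptor, and with alpha V. The beta 7 chain pairs with alpha 4 into a receptor for MAdCAM-1, the gut addressin, and alpha V beta 3 binds vitronectin. CD11b is a surface marker that separates B-1 cells of the body cavities from most other B cells, and alpha 4 and CD11b take part in the movement of B-1 cells out of the peritoneum. The array reads RNA only, and no surface protein was measured.

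Paxip1, the gene of PTIP, was measured first as a check of the labels. It stood at 4.66, 4.48, 4.79 and 3.58 in KO pools 1 to 4, against 6.87, 7.13, 7.16 and 7.03 in WT pools 1 to 4, on the log2 scale of the deposited values. Whether its probes lie in the floxed part was not examined. Array medians over all probe sets lay between 3.68 and 3.74. Cd79a, a chain of the B cell receptor complex, averaged 10.77 ± 0.25 in KO and 10.82 ± 0.03 in WT, and Cd5, which defines B-1a cells, averaged 7.48 ± 0.19 in KO and 7.44 ± 0.15 in WT (SD, n = 4 pools each). Some B cell and B-1 cell markers differed between the genotypes, in both directions, and are given beside Itgam. RNA of other cells was present unevenly. The mean of 13 T cell markers ran from 5.34 to 7.40 in KO pools and from 4.72 to 5.75 in WT pools. It was highest in pools 1 and 2 of both genotypes. The mean of 18 macrophage markers ran from 4.62 to 4.85 in KO pools and from 4.46 to 5.36 in WT pools, highest in WT pool 1.

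Of the 10 chains, 3 were lower in KO and 0 were higher (limma, adjusted p under 0.05 over all 22180 genes; such genes are described as called). Over all genes 3.59% were called, 2.10% lower and 1.49% higher in KO. The called chains were Itgam, Itga6 and Itgb1. The other 7 were not called, among them Itgb2, the beta partner of Itgam. At an unadjusted p under 0.05, 5 chains were lower and 1 was higher; over all genes 15.3% passed this level, 7.60% lower and 7.72% higher. The KO values lay wholly below the WT values for 5 chains, Itgam, Itga4, Itga6, Itgb1 and Itgb7, as they did for 5.09% of all genes, and lay wholly above them for 0 chains and 5.41% of all genes (10.5% in either direction). The median difference of the 10 chains was -0.18 on the log2 scale, and that of all genes was 0.02. These genes were chosen with earlier results of the same arrays known.

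**Figure D1:**
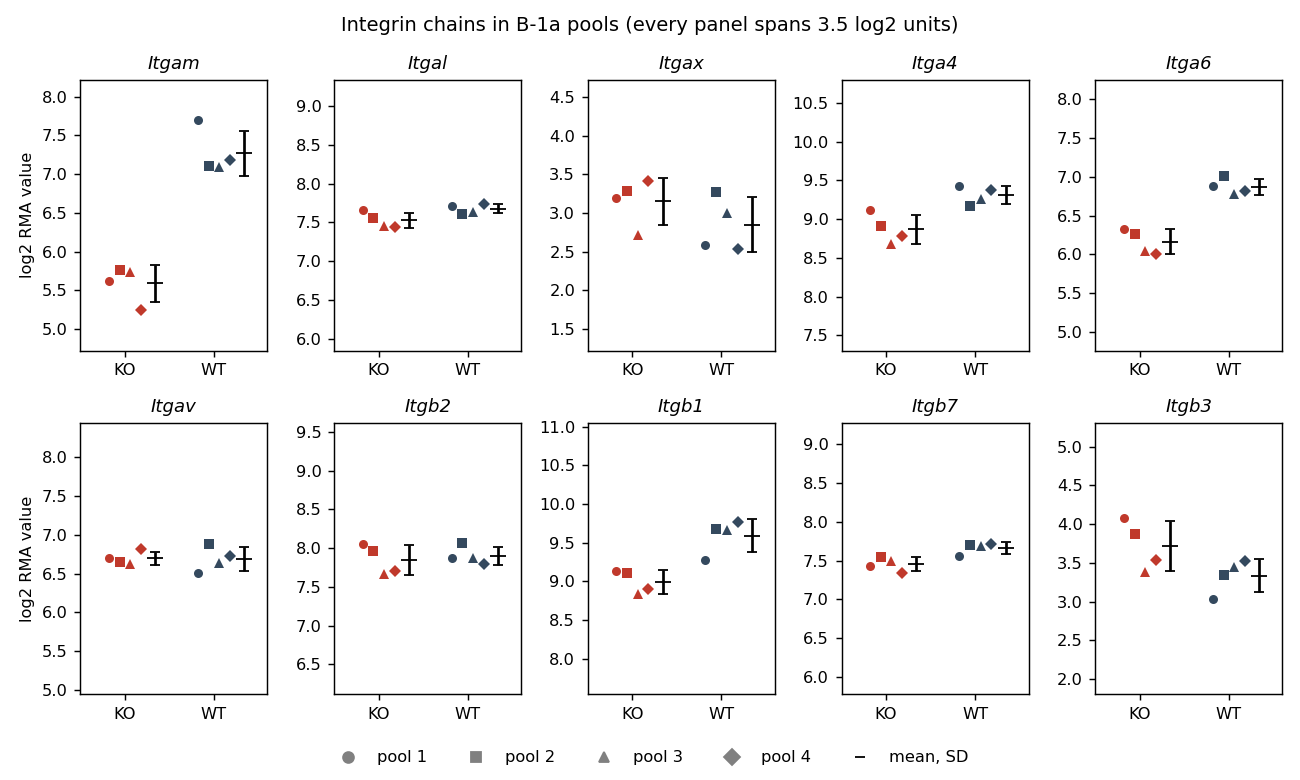
Deposited log2 values of the 10 integrin chains, with 1 point per pool, the 4 KO pools left and the 4 WT pools right in each panel, and the mean with its SD beside them. Every panel spans the same number of log2 units. Itgam separates by more than any other chain, with KO pools at 5.24 to 5.76 and WT pools at 7.09 to 7.70.

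Itgam, the CD11b chain, showed the largest difference of the 10. Its values were 5.62, 5.76, 5.74 and 5.24 in KO pools 1 to 4, against 7.70, 7.11, 7.09 and 7.18 in WT pools 1 to 4. The highest KO pool lay well below the lowest WT pool, and WT pool 1 stood above the other WT pools. The mean fell to 5.59 ± 0.24 in KO, against 7.27 ± 0.29 in WT (SD, n = 4 pools each). Itgam differed by -1.68 (SE 0.16, 95% interval -2.02 to -1.34, limma, adjusted p = 0.000191), so Itgam RNA was 3.2-fold lower in KO. The call held in all 20 alternatives, where the difference ran from -1.80 to -1.54 and adjusted p in limma reached 0.00461. Without WT pool 1 the difference was -1.54.

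Itgam was not the only gene of the B-1 cell marker list that was lower in KO. Of the 7 other measured members 1 was called lower and 0 were called higher (2.10% and 1.49% of all genes). At an unadjusted p under 0.05 in limma 4 of the 7 were lower and 1 was higher (7.60% and 7.72% of all genes). Their median difference was -0.23. The called gene, Zbtb32, a transcriptional repressor of B-1 and activated B cells, averaged 7.81 ± 0.33 in KO and 8.92 ± 0.16 in WT (SD, n = 4 pools each), a difference of -1.11 (SE 0.15, limma, adjusted p = 0.00256). Spn (CD43), a sialoglycoprotein of B-1 cells, differed by -0.52, the receptor Tnfrsf13b (TACI) by -0.41 and the inhibitory receptor Ctla4 by 0.55, each with groups that did not overlap and without a call. Of 11 B cell markers 1 was called lower (2.10% of all genes) and 0 higher (1.49%). This was Cd22, an inhibitory co-receptor, at 9.54 in KO and 10.13 in WT (-0.59, SE 0.11, limma, adjusted p = 0.0170). Its call was lost without KO pool 4 or WT pool 4 (adjusted p = 0.0517 and 0.0555), without KO pools 1 and 2 together (0.138) and with the T cell marker mean in the fit (0.131), while Zbtb32 was called in all 20 alternatives. At an unadjusted p under 0.05 in limma 4 of the 11 B cell markers passed (15.3% of all genes). Besides Cd22 these were Blk (-0.24), which was lower, and Fcer2a (0.35) and Pou2af1 (0.23), which were higher in KO. These genes were chosen after their values were seen.

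No other alpha chain of the beta 2 family was called. Itgal, the CD11a chain of LFA-1, stood at 7.66, 7.55, 7.45 and 7.45 in KO pools, against 7.72, 7.61, 7.64 and 7.74 in WT pools. These ranges overlapped, and the difference of -0.15 (SE 0.08, 95% interval -0.33 to 0.03) did not pass (adjusted p = 0.429 in limma). Itgax, the CD11c chain of dendritic cells and some macrophages and B cells, was dim in both genotypes, at 3.19, 3.28, 2.71 and 3.41 in KO pools, against 2.58, 3.27, 3.0 and 2.53 in WT pools. Its pools overlapped, all lay below the medians of the arrays, and the difference of 0.30 (95% interval -0.11 to 0.71) was not called (adjusted p = 0.500 in limma). At such low values a change is understated by the array.

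Itgb2, the beta chain common to LFA-1, Mac-1 and the CD11c integrin, was at 8.06, 7.96, 7.66 and 7.71 in KO pools, against 7.87, 8.07, 7.87 and 7.79 in WT pools. The pools of both genotypes were intermixed. Its difference was -0.05 (SE 0.11, 95% interval -0.29 to 0.19, adjusted p = 0.886 in limma), so a fall of the size seen for Itgam lies outside the interval.

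Itgam, Itgax and Itgad follow one another directly on chromosome 7 in the RefSeq gene order, and 35 protein-coding genes lie between Itgal and Itgam. Of this row only Itgam was called, with differences of 0.30 for Itgax and 0.16 for Itgad, the alpha D chain. Itgax and Itgad both lay below the array medians in every pool, so a change of either could be understated or missed. On the other side, Trim72 came next with a difference of -0.13, and Pycard, the inflammasome adaptor ASC, lay beyond it and was lower in KO at 6.81, against 7.31 in WT (-0.50, SE 0.10, limma, adjusted p = 0.0197). The start regions of Itgam and Itgax are shown because these are neighbours of 1 gene family, and that of Itgb1 because it was another called chain. Itgam was called, and Itgax was too dim to show whether it responded. All of these regions come from RefSeq (GRCm38.p6), on the + strand, 5′ to 3′, each with 250 bases before and 50 after the annotated start of the gene. Capitals mark GAGGAA or its reverse complement TTCCTC, the core recognised by the Ets factor PU.1, which is known to act on the CD11b promoter in myeloid cells. The windows are chr7:128062390-128062689 for Itgam, chr7:128129300-128129599 for Itgax and chr8:128685404-128685703 for Itgb1.
Itgam: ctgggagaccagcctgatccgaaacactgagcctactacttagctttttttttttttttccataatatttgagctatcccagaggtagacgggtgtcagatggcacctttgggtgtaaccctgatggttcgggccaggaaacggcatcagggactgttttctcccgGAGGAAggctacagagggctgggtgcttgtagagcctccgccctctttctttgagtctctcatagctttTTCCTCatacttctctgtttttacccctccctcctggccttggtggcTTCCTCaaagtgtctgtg
Itgax: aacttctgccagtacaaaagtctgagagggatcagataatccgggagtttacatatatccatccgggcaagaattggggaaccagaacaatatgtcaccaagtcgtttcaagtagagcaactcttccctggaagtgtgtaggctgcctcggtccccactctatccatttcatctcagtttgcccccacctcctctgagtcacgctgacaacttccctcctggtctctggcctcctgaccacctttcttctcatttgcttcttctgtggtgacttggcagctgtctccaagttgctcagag
Itgb1: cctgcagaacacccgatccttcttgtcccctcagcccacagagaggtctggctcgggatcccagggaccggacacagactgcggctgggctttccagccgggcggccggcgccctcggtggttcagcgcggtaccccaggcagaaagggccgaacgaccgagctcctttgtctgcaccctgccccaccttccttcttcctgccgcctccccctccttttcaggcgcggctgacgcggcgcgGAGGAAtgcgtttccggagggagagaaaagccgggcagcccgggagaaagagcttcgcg
The Itgam window held 3 copies over both strands, that of Itgb1 held 1 and that of Itgax held 0, and no copies overlapped. Of 32851 such windows of all genes, 28.3% held at least 1 copy and 4.82% at least 2. The windows of the chains that were not called also differed, with 2 copies for Itgav, 1 for Itgb7 and 0 for Itga4. The promoter table held 6 of the 10 chains.

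Among the partners of beta 1, Itga6, an alpha chain of laminin receptors, was called. It was at 6.33, 6.27, 6.05 and 6.0 in KO pools, against 6.88, 7.01, 6.78 and 6.82 in WT pools. All KO pools lay below all WT pools. The mean fell to 6.16 ± 0.16 in KO, against 6.87 ± 0.10 in WT (SD, n = 4 pools each), a difference of -0.71 (SE 0.10, 95% interval -0.93 to -0.49, limma, adjusted p = 0.00273), or 1.63-fold lower in KO. It was called in all 20 alternatives (adjusted p up to 0.0105 in limma).

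Itgb1, the beta 1 chain itself, was at 9.14, 9.11, 8.83 and 8.90 in KO pools, against 9.27, 9.67, 9.66 and 9.76 in WT pools. The groups did not overlap, but WT pool 1 lay close to KO pools 1 and 2. The mean was 8.99 ± 0.15 in KO and 9.59 ± 0.22 in WT (SD, n = 4 pools each), a difference of -0.60 (SE 0.12, 95% interval -0.86 to -0.33, limma, adjusted p = 0.0205), or 1.51-fold lower in KO. Omission of KO pool 4 or of WT pool 2, 3 or 4 ended the call (adjusted p from 0.0608 to 0.0659 in limma). It was also lost without KO pools 1 and 2 together (0.0503) and with the T cell markers averaged as a term of the fit (0.0871); the difference ran from -0.73 to -0.54 over all 20 alternatives.

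Itga4, the alpha chain of VLA-4 and of alpha 4 beta 7, was at 9.11, 8.91, 8.68 and 8.79 in KO pools, against 9.43, 9.17, 9.26 and 9.38 in WT pools. KO pool 1, the highest of its group, came close to WT pool 2, the lowest of the other, and the groups did not overlap. The difference of -0.44 (SE 0.11, 95% interval -0.68 to -0.20) just missed the threshold (limma, adjusted p = 0.050, above the threshold before rounding). Itga4 was called in 6 of its 20 alternatives, among them omission of KO pool 1 (-0.52, adjusted p = 0.0265) and of KO pools 1 and 2 together (-0.58, adjusted p = 0.0479). A second probe set that Itga4 shares with the neighbouring gene Cerkl was dim and differed by -0.08.

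Itgb7, the beta chain of the gut-homing integrin alpha 4 beta 7, was at 7.43, 7.54, 7.50 and 7.34 in KO pools, against 7.55, 7.70, 7.69 and 7.72 in WT pools. The groups were adjacent without overlap, KO pool 2 and WT pool 1 being nearly equal. The difference of -0.21 (SE 0.08, 95% interval -0.40 to -0.03) was not called (adjusted p = 0.234 in limma), nor in any of its 20 alternatives.

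Of the vitronectin receptor chains, Itgav was at 6.70, 6.65, 6.62 and 6.82 in KO pools, against 6.51, 6.88, 6.64 and 6.73 in WT pools. The difference was 0.00 (SE 0.10, 95% interval -0.21 to 0.22, adjusted p = 0.991 in limma), and a second, dimmer probe set of Itgav differed by -0.03. Itgb3, the beta 3 chain, was dim, at 4.08, 3.88, 3.38 and 3.54 in KO pools, against 3.03, 3.35, 3.44 and 3.52 in WT pools. Its pools overlapped, KO pools 1 and 2 being the highest of all 8, and the difference of 0.38 (SE 0.16, 95% interval 0.04 to 0.73) was not called (adjusted p = 0.272 in limma). Without KO pools 1 and 2, the pools richest in T cell markers, it was 0.12.

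**Figure D2:**
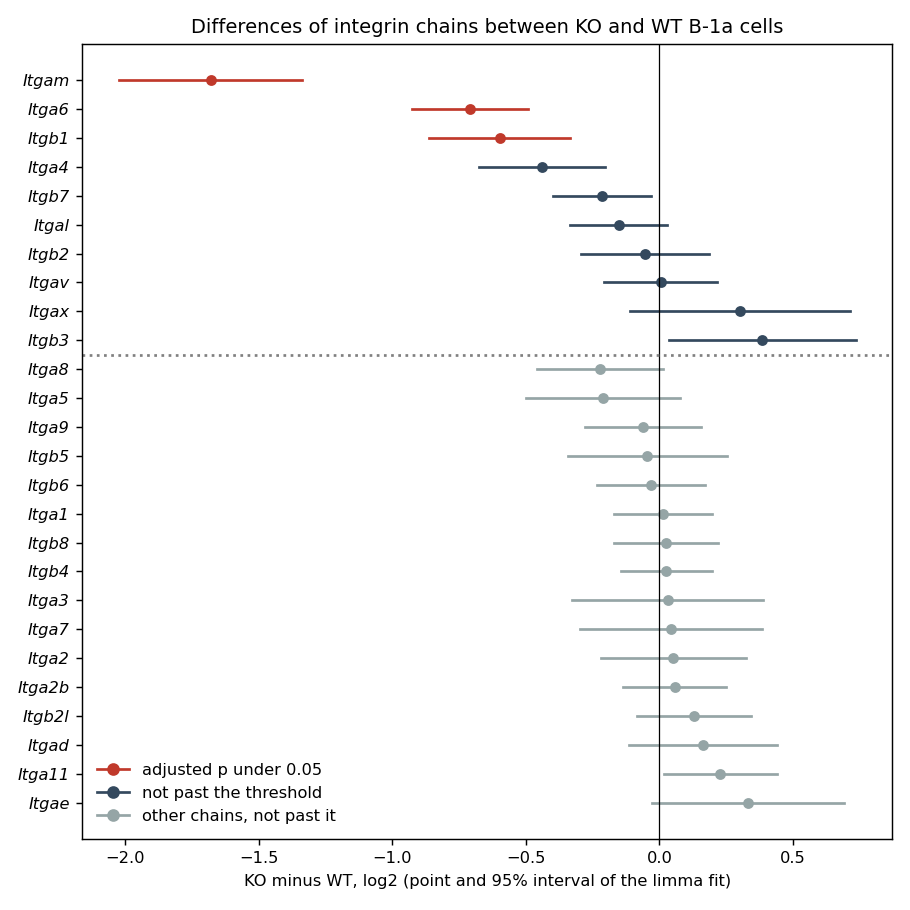
Difference KO minus WT on the log2 scale, as points with the 95% interval of the limma fit, for the 10 chains above the dotted line and 16 other integrin chains below it. The called chains Itgam, Itga6 and Itgb1 lie left of 0, and none of the 16 other chains was called.

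Because a chain acts with its partner, the difference between an alpha and a beta value was taken within each array and compared between genotypes for 8 alpha and beta pairs and for Itgam against Itgal. A difference within an array shows unequal change of both genes and says nothing of their relative amounts. For Itgam minus Itgb2 it was -2.44, -2.20, -1.93 and -2.47 in KO pools, against -0.17, -0.96, -0.78 and -0.61 in WT pools. The groups were well apart, and Itgam fell relative to its partner by 1.63, with an exact two-sided permutation p = 0.0286, the smallest that 4 against 4 arrays allow. Adjusted over the 9 comparisons this was 0.0857, so it did not pass after adjustment. Itgam also differed relative to Itgal, by -1.53, with the same exact permutation p of 0.0286 and 0.0857 after adjustment.

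In the beta 1 family, Itgb1 and Itga6 had falls of like size, and the difference between their changes was -0.11 (exact permutation p = 0.486, adjusted p = 0.486). Itga6 minus Itgb1 was at -2.80, -2.84, -2.78 and -2.90 in KO pools, against -2.39, -2.67, -2.88 and -2.94 in WT pools, a wider range than in KO. Itgav minus Itgb1 averaged -2.30 ± 0.18 in KO and -2.90 ± 0.15 in WT (SD, n = 4 pools each). It was higher in every KO pool than in any WT pool, by 0.60 on average (exact permutation p = 0.0286, adjusted p = 0.0857). Itgal relative to Itgb2 (-0.10), Itgax relative to Itgb2 (0.36), Itga4 relative to Itgb1 (0.16), Itga4 relative to Itgb7 (-0.22) and Itgav relative to Itgb3 (-0.38) all had overlapping groups and exact permutation p from 0.143 to 0.371.

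**Figure D3:**
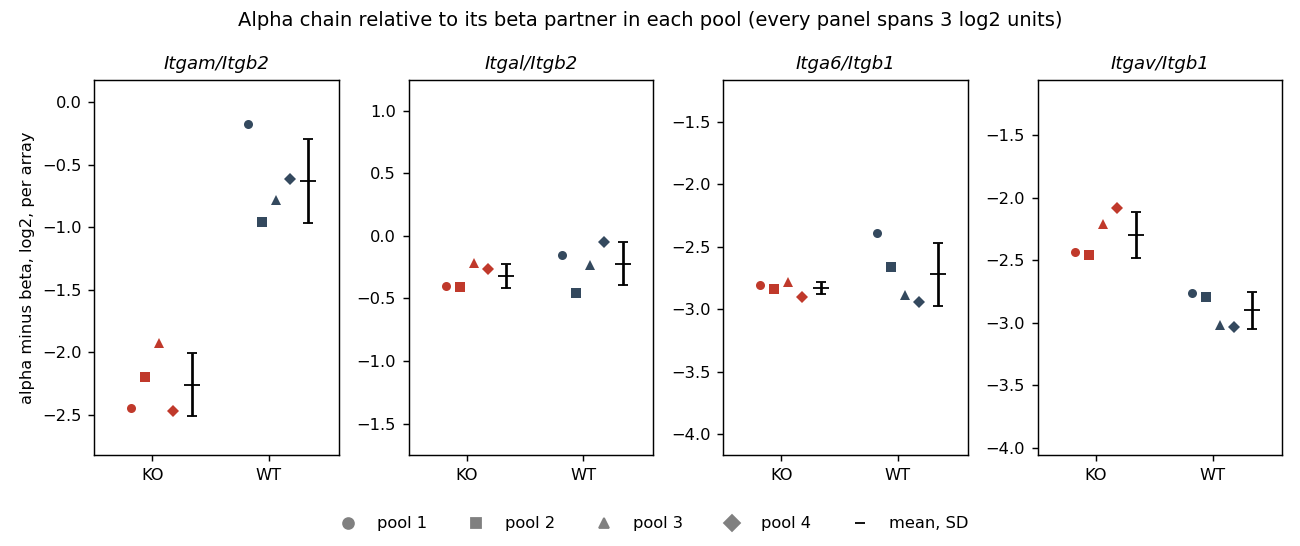
Alpha chain minus beta chain within each array, in log2 units, for 4 pairs, with KO pools left, WT pools right and the mean with its SD beside them. Itgam relative to Itgb2 lies at -2.47 to -1.93 in KO pools and -0.96 to -0.17 in WT pools, while Itga6 relative to Itgb1 overlaps.

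CD11b and CD11c are also chains of macrophages, neutrophils, dendritic and NK cells, so markers of these cells were read beside them. In bulk RNA, fewer cells of a type and less RNA per cell cannot be told apart. Of 18 macrophage markers 1 was called lower (2.10% of all genes) and 0 higher (1.49%). The called gene was Cd68, an endosomal glycoprotein, at 7.63 ± 0.24 in KO, against 8.19 ± 0.12 in WT (-0.56, SE 0.12, limma, adjusted p = 0.0275). Its groups did not overlap. At an unadjusted p under 0.05 in limma 5 of the 18 passed (15.3% of all genes). Besides Cd68 these were Adgre1, Mrc1 (-0.85) and Cebpb (-0.18), all lower, and Marco (0.33), which was higher. The macrophage receptor Adgre1 (F4/80) was at 4.79, 4.41, 3.80 and 4.09 in KO pools, against 5.61, 4.70, 5.11 and 4.71 in WT pools, and was not called (adjusted p = 0.122 in limma). Csf1r, the receptor of the macrophage growth factor, differed by 0.05.

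Lyz2, the lysozyme of myeloid cells, was at 8.98, 8.95, 8.69 and 8.81 in KO pools, against 10.1, 8.29, 9.30 and 8.10 in WT pools. WT pool 1 was the highest for Lyz2, Adgre1 and Itgam. WT pools 2 and 4 had less Lyz2 than every KO pool. With the macrophage marker mean as a covariate Itgam differed by -1.60 (adjusted p = 0.000346 in limma). The neutrophil genes S100a8 and S100a9 lay below the array medians in every pool, and 0 of 11 neutrophil, 0 of 9 dendritic cell and 0 of 7 platelet markers were called, with 0, 4 and 1 of them at an unadjusted p under 0.05 in limma (15.3% of all genes). The mean of the neutrophil markers was 2.77 to 2.83 in KO pools and 2.78 to 2.83 in WT pools; that of the dendritic cell markers was 4.05 to 4.15 in KO pools and 3.94 to 4.03 in WT pools. For the platelet and megakaryocyte markers, among them Itga2b, the alpha partner of beta 3 in platelets, the mean was 3.45 to 3.63 in KO pools and 3.40 to 3.82 in WT pools. Of 11 mast cell and eosinophil markers 0 were called, with 1 at an unadjusted p under 0.05 in limma (15.3% of all genes). Their mean was 3.10 to 3.46 in KO pools and 2.91 to 3.71 in WT pools, highest in WT pool 1.

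T and NK cells carry LFA-1, VLA-4 and other chains listed here. Of 13 T cell markers 0 were called, but 9 passed an unadjusted p under 0.05 in limma (15.3% of all genes). Their median difference was 1.01, and 12 of the 13 were positive, against 12100 of 22180 over all genes. The T cell gene Cd3e was at 8.64, 8.04, 5.90 and 6.92 in KO pools, against 5.87, 6.24, 4.51 and 4.02 in WT pools, and was not called (adjusted p = 0.0774 in limma). KO pool 1, the highest in Cd3e, was also the highest KO pool for 6 of the 10 chains, and KO pool 3, the lowest KO pool in Cd3e, was the lowest for 6. Of 11 NK cell markers 2 were called higher in KO (1.49% of all genes) and 0 lower (2.10%). They were Klrb1c (0.73) and Klrd1 (1.83), both NK receptors chosen after their values were seen. At an unadjusted p under 0.05 in limma 7 of the 11 passed (15.3% of all genes), and all 11 differences were positive. The NK list had a mean of 4.37 to 5.59 in KO pools and 3.62 to 4.48 in WT pools. With the T cell markers averaged as a term of the fit the differences were -1.80 for Itgam, -0.90 for Itga6, -0.68 for Itgb1, -0.59 for Itga4 and -0.28 for Itgb2. These 5 were larger in size than in the simple fit. The difference of Itgal also grew, to -0.23 against -0.15 in the simple fit. For Itgb7 it was -0.21 and for Itgav 0.00. Itgax shrank to 0.07, against 0.30 in the simple fit, and Itgb3 to 0.16, against 0.38. With the macrophage marker mean instead, Itgax differed by 0.28 and Itgb3 by 0.35. In neither fit was Itgal, Itgb7, Itgav, Itgax or Itgb3 called.

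**Figure D4:**
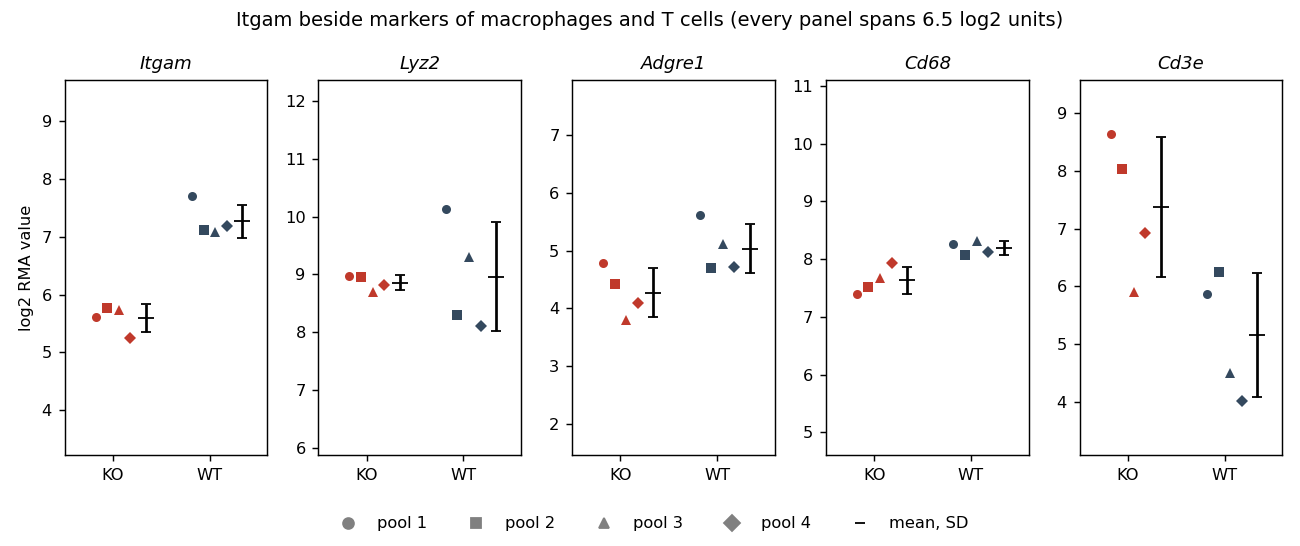
Log2 values of Itgam, of the macrophage markers Lyz2, Adgre1 and Cd68 and of the T cell marker Cd3e, with KO pools left, WT pools right and the mean with its SD. Itgam and Cd68 divide the genotypes, Cd68 at 7.40 to 7.94 in KO pools and 8.06 to 8.31 in WT pools. Lyz2 of the KO pools (8.69 to 8.98) lies within the span of the WT pools (8.10 to 10.1).

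Of 16 other integrin chains measured, 0 were called in either direction, with 1 at an unadjusted p under 0.05 in limma (15.3% of all genes). Their median difference was 0.03, and single differences ran from -0.22 to 0.33. The 4 with the smallest p were Itga11 (0.23), Itga8 (-0.22), Itgae (0.33) and Itga5 (-0.21); Itgae pairs with beta 7 on lymphocytes of epithelia, and Itga5 with beta 1 as a fibronectin receptor. The mean of these chains was 3.13 to 3.23 in KO pools and 3.11 to 3.17 in WT pools, below the array medians.

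Of 32 measured genes on a list of integrin activation, adaptors and related partners, 1 was higher and 2 were lower in KO (1.49% and 2.10% of all genes). Their median difference was 0.09. More of them passed weaker criteria. At an unadjusted p under 0.05 in limma 13 passed (15.3% of all genes), and 10 had groups that did not overlap (10.5% of all genes). Of the 32 differences 24 were positive and 8 negative, against 12100 positive of 22180 over all genes. The largest was that of Fyb (1.43), at 7.16, 6.30, 4.68 and 5.13 in KO pools. Skap1 (1.04) was at 6.18, 5.16, 3.63 and 4.32 there. Both adaptors were chosen after their values were seen and neither was called. Like the T cell markers, they were highest in KO pools 1 and 2, and the part of T cell RNA in the counts of this list was not tested. Ptk2b, the kinase PYK2 that acts downstream of integrins, averaged 7.23 ± 0.15 in KO and 6.76 ± 0.04 in WT (0.47, SE 0.09, limma, adjusted p = 0.0178). Skap2, an adaptor of integrin signalling in myeloid and B cells, was at 6.85 in KO and 7.37 in WT (-0.52, SE 0.12, adjusted p = 0.0388). Nrros, a membrane protein that holds latent TGF-beta 1 for activation by alpha V integrins, was at 6.90 in KO and 7.29 in WT (-0.40, SE 0.09, adjusted p = 0.0361). The actin linker Actn1 differed by 0.48 and was not called (adjusted p = 0.0590). Of the genes of integrin activation, Tln1 (talin) differed by 0.17, Fermt3 (kindlin-3) by -0.10, Rap1b by 0.04 and Apbb1ip (RIAM) by 0.22. These were chosen after their values were seen and none was called. The call of Ptk2b was lost without KO pool 1, KO pool 2 or WT pool 3, that of Skap2 without any 1 pool but KO pool 1, and that of Nrros without any but WT pool 2 (adjusted p up to 0.0583, 0.104 and 0.104 in limma). None of the 3 was called with the T cell term (adjusted p = 0.151, 0.0887 and 0.229) or without KO pools 1 and 2 together (0.16, 0.0832 and 0.153), and Nrros was not called with the macrophage term (0.0585).

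Of 30 measured ligands and counter-receptors 1 was higher and 1 was lower (1.49% and 2.10% of all genes), with a median difference of -0.01. At an unadjusted p under 0.05 in limma 3 passed (15.3% of all genes). F11r (JAM-A), a junction protein that binds LFA-1, was at 4.55, 4.82, 4.82 and 4.51 in KO pools, against 5.45, 5.30, 5.91 and 5.52 in WT pools (-0.87, SE 0.13, limma, adjusted p = 0.00464). No KO pool reached the lowest WT pool. Tgfb1, whose latent form is bound by alpha V integrins, was higher in KO, at 9.16 ± 0.10, against 8.73 ± 0.07 in WT (0.43, SE 0.08, limma, adjusted p = 0.0170). Its call was lost without WT pool 4 (adjusted p = 0.0555), and neither F11r nor Tgfb1 was called with the T cell markers averaged as a term of the fit (adjusted p = 0.0793 and 0.0647). Thy1, a T cell surface protein that binds beta 2 and beta 3 integrins, is itself on the T cell marker list and differed by 1.94 without a call, at 8.30, 8.25, 5.25 and 6.0 in KO pools, against 5.87, 5.84, 4.46 and 3.88 in WT pools. Madcam1, the ligand of alpha 4 beta 7, differed by 0.16 and was not called.

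Among 16 tetraspanins and other membrane partners of integrins, 2 were lower in KO and 0 were higher (2.10% and 1.49% of all genes). At an unadjusted p under 0.05 in limma 4 passed in either direction (15.3% of all genes), and the median difference was 0.02. Plaur, the urokinase receptor, which associates with Mac-1 in the membrane, was at 5.20, 5.32, 5.29 and 4.50 in KO pools, against 7.39, 8.25, 7.92 and 8.03 in WT pools. It shared with Itgam its lowest value in KO pool 4, but WT pool 1 was the lowest WT pool here and the highest for Itgam. Its difference was -2.82 (SE 0.21, limma, adjusted p = 5.63e-05). Cd9, a tetraspanin that binds beta 1 integrins, averaged 6.12 ± 0.11 in KO and 6.72 ± 0.24 in WT (-0.60, SE 0.12, limma, adjusted p = 0.0211), a call lost without KO pool 2 or WT pool 4 (adjusted p up to 0.0675), without KO pools 1 and 2 together (0.158) and with the T cell term (-0.45, adjusted p = 0.231). The mean of the Cd9 probe sets differed by -0.34 (adjusted p = 0.0455). Tspan2 (0.48) and Cd47 (-0.24), a partner of beta 3 integrins, were not called.

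The 5 genes whose values most resembled those of Itgam over the 8 arrays were Gab2, Suco, Akap17b, Tnfrsf23 and Clec2d. Predicted genes and clone names were left out of this ranking. Gab2 is a docking adaptor downstream of cytokine and antigen receptors, Tnfrsf23 a decoy receptor for TRAIL, and Clec2d a ligand of inhibitory NK receptors. Likeness was measured by Pearson's r over 8 arrays, which was 0.984 to 0.991 and contains the genotype difference that each gene shares with Itgam. As deviations from the group means r was 0.921 for Gab2 and 0.740 to 0.845 for the other 4. All 5 were lower in KO, with differences of -1.72 for Gab2 and from -1.22 to -0.51 for the others (adjusted p up to 0.00754 in limma). This direction followed from the selection, because r over the same arrays contains the genotype difference of Itgam. The r of the deviations was likewise read in genes selected on these arrays, so neither is separate evidence of a link with Itgam.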

How the data were processed

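RNA of 8 pools of sorted B-1a cells, 4 KO and 4 WT, was measured on Affymetrix arrays. The deposited values are log2 values of 41345 probe sets, made by the authors with RMA in R 3.2.2 per the submitters' processing notes. RMA corrects background, gives all arrays 1 distribution and summarises probes, so differences are relative to the other genes, and folds of dim genes are understated. The labels do not name the package or the probe set annotation. No read depth applies to arrays; precision is limited by how many there were. RNA integrity numbers were above 8 per the labels.

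Probe sets with 1 symbol in the platform annotation (23521) were reduced to 22180 genes by the highest mean. KO was compared with WT by limma 3.58.1 in R 4.3.3 (lmFit, eBayes, default prior, two-sided, Benjamini-Hochberg over 22180 genes, threshold 0.05). The fit was tested on simulated data. Pairs of chains were compared by exact two-sided permutation over 70 assignments of the arrays, adjusted over 9 comparisons. Of 220 list genes 199 matched. Genes of the 4 other integrin lists are named if called or among the 4 smallest p of a list. A few others of the activation list are marked as chosen after their values were seen. Itgam's 5 most similar genes, its neighbours and defining markers were also named. The members and lists were chosen with earlier results of these data known. Nothing in the labels says how mice were divided into pools. Alternatives are given in the closing section.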

Additional observations from a re-analysis of the deposited data

Results flagged for a closer look

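The Itgam value of WT pool 1, at 7.70, stood apart from the other 3 WT pools, the nearest of which was at 7.18. The gap was 0.848 of the range of the group, above the 95% critical value of Dixon's test for 4 samples. Of 22 groups examined (10 chains and Paxip1 in each genotype) it was the only one past that value, and chance flags about 1 in 20 groups. The same pool had the highest mean of the macrophage markers, 5.36. It was also highest for the means of the mast cell and eosinophil markers, 3.71, and of the platelet and megakaryocyte markers, 3.82. The part of these cells in its Itgam value was not tested. Without the pool Itgam differed by -1.54 (limma, adjusted p = 0.00048).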

How the results depend on the processing

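The alternatives were chosen with earlier results known. Itgam, Itga6 and Paxip1 were called in all 20 alternatives, and no called difference of a chain changed sign in any. Chains called lower numbered 2 to 4, and 0 were called higher in each alternative. Itga4 was called when every gene was given the mean of its probe sets (-0.44, limma, adjusted p = 0.0487). Itga4 has 1 probe set of its own, and the set shared with Cerkl was not used, so its values did not change there. Only the fit over the other genes moved. It was also called among genes above the median (-0.44), with an intensity trend (-0.44), with arrays centred on their median (-0.45) and without KO pools 1 and 2 (-0.58). Leaving out 1 pool gave -0.52 to -0.37. Itgb1 was not called at a threshold of 0.01 (-0.60), with the replicate number as a block (-0.60, adjusted p = 0.0524), with the T cell marker mean (-0.68) or without KO pools 1 and 2 (-0.73); leaving out 1 pool gave -0.70 to -0.54. Over all genes, falls and rises numbered 188 and 123 at a threshold of 0.01, 150 and 141 with the T cell marker mean, and 183 and 137 without KO pools 1 and 2; leaving out 1 pool gave 274 to 462 falls and 196 to 296 rises, against 466 and 331. Each of these fits has fewer arrays, a covariate or a stricter threshold.

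In the activation list, falls numbered 0 at 0.01, with the block, with the T cell marker mean and without KO pools 1 and 2, and 1 with the macrophage marker mean (0 to 1 with 1 pool left out). Rises there numbered 4 among genes above the median, 5 with the trend, 0 at 0.01, with the T cell marker mean and without KO pools 1 and 2 (0 to 3 with 1 pool left out). Among ligands, rises numbered 2 with the block and 0 at 0.01, with the T cell marker mean and without KO pools 1 and 2 (0 to 1 with 1 pool left out), and falls 0 with the T cell marker mean. Among membrane partners, rises numbered 1 among genes above the median and with the trend (0 to 1 with 1 pool left out), and falls 1 at 0.01, with the T cell marker mean and without KO pools 1 and 2 (1 to 2 with 1 pool left out). The causes were not tested. Whether the replicate numbers pair the samples was not settled. Deviations of same-numbered pools correlated at 0.0363 to 0.107 across genes, and only for number 1 did both pools correlate best with each other. A correlation across all genes cannot show a likeness confined to some of them. The T cell marker mean was highest in pools 1 and 2 of both genotypes. With the block the T cell gene Thy1 was called (adjusted p = 0.00635 in limma). Array weights and repeated quantile normalization kept the calls of Itgam, Itga6 and Itgb1. With the block Ptk2b, Skap2 and Nrros were not called (adjusted p = 0.0507, 0.0748 and 0.0799). No pair of chains passed 0.05 after adjustment in any alternative, but the smallest exact p made this nearly unattainable over 9 comparisons, so it says nothing of stability. Itgax and Itgb3 lay below the median filter and have no value there.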
